A study of Mus musculus with 6 samples.

Results

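The genes described here carry pyruvate into the mitochondrion and oxidize it in the tricarboxylic acid (TCA) cycle, and they were measured in inguinal white adipose tissue (iWAT) of cold-acclimated mice that had or lacked NRG4 in adipocytes. They were listed by name, with earlier results of these data known: 12 subunits of cycle enzymes, 6 genes of pyruvate entry, 7 kinase and phosphatase genes that set the activity of pyruvate dehydrogenase (PDH), and 9 genes of anaplerosis and of the shuttles between mitochondrion and cytosol. All 34 were among the 16538 genes listed in the deposited table, and all 34 passed the minimum mean of 10 normalized counts, as did 13855 genes in all.

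The TCA cycle condenses acetyl-CoA with oxaloacetate and oxidizes the product in steps that feed electrons to the respiratory chain. Pyruvate crosses the inner mitochondrial membrane through a carrier and is converted to acetyl-CoA by PDH, which kinases of the PDK family inactivate by phosphorylation and PDP phosphatases reactivate. Thermogenic (brown and beige) adipocytes are rich in mitochondria and draw on this cycle when they burn fuel for heat.

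RNA was sequenced from iWAT, a subcutaneous fat depot, of 3 control samples (labelled wt) and 3 samples labelled NRG4-AKO. The controls were fl/fl littermates with intact Nrg4, and the AKO mice carried the same floxed allele together with Adiponectin-Cre, which acts in adipocytes and leaves other cells of the depot with a working gene. All mice were fed chow and kept at 8°C, for 10 days by the sample labels and 12 days by the methods of the study, and each sample held tissue RNA of 2 mice. The sex and age of the mice are not given in the sources used here. The p-values below measure the spread between these pools.

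Values are normalized counts, which are read counts per gene divided by a size factor of each sample, and they were not divided by gene length. Genotypes were compared with limma on log2(normalized count + 1), and genes with an adjusted p under 0.05 (Benjamini-Hochberg over all 13855 genes) count as called. Depth ranged from 17570335 to 18373707 reads on the listed genes. Nrg4 itself was at 3128, 3102 and 3092 normalized counts in control replicates 1 to 3 and at 2576, 2627 and 2691 in AKO replicates 1 to 3, with a log2 difference of -0.24 (SE 0.053, limma adjusted p = 0.298). Which of its exons the floxed allele loses is not stated in the sources used here, so that reads over the whole gene check the deletion only in part. By qPCR the study found almost no Nrg4 mRNA in iWAT and brown fat of AKO mice. Of the 7 thermogenic adipocyte markers all were lower in AKO samples (median log2 difference -1.07), and their summed normalized counts were 27631 to 39747 in controls and 11372 to 14847 in AKO samples. Of the 6 general adipocyte markers 5 were lower and none was called, with sums of 329518 to 353021 and 296017 to 324098. Markers of other tissue in the dissected depot varied between samples. The 13 skeletal muscle markers summed to 167 to 27274 normalized counts in controls and to 20130.0 to 118180 in AKO samples, and 10 of the 12 tested were higher in AKO (Myh7 was at 0 in 1 sample of each genotype). Lymphocyte markers summed to 665 in control replicate 1 and 916 in AKO replicate 2, against 74.2 to 98.9 in the other 4 samples, mammary epithelial markers ranged from 10.8 to 1086 and from 121 to 1382, and all 6 macrophage markers were higher in AKO (sums of 7876 to 10923 and 9746 to 12978). The part of each of these in the differences below was not tested, and in whole tissue fewer cells of a type and less RNA per cell cannot be told apart.

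Of the 34 genes 26 were lower and 8 higher in AKO samples, where 48.1% of all genes tested were lower. None passed the adjusted threshold in limma, which called 0.0144% of all genes, and none did in edgeR. Before adjustment, 16 were lower at a p under 0.05 and 1 was higher, where 4.69% and 4.41% of all genes were. In 15 genes no AKO sample reached the lowest control (AKO below control) and in 1 the AKO samples were all above the controls, against 8.31% and 6.14% of all genes. DESeq2, run on the recovered reads, called 8 of the 34, all lower, and called 0.757% of all genes as lower. The median log2 difference was -0.22 over the 34 genes and 0.007 over all genes tested. It was -0.33 for the cycle enzymes, -0.072 for pyruvate entry, -0.013 for the PDH kinases and phosphatases, and -0.16 for anaplerosis and shuttles. With samples left out in turn, the cycle enzyme median stayed between -0.39 and -0.25, while those of the other roles took either sign. Of the 26 lower genes 12 were cycle enzymes, 5 were genes of pyruvate entry, 4 were kinase or phosphatase genes and 5 belonged to anaplerosis and shuttles.

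**Figure D1:**
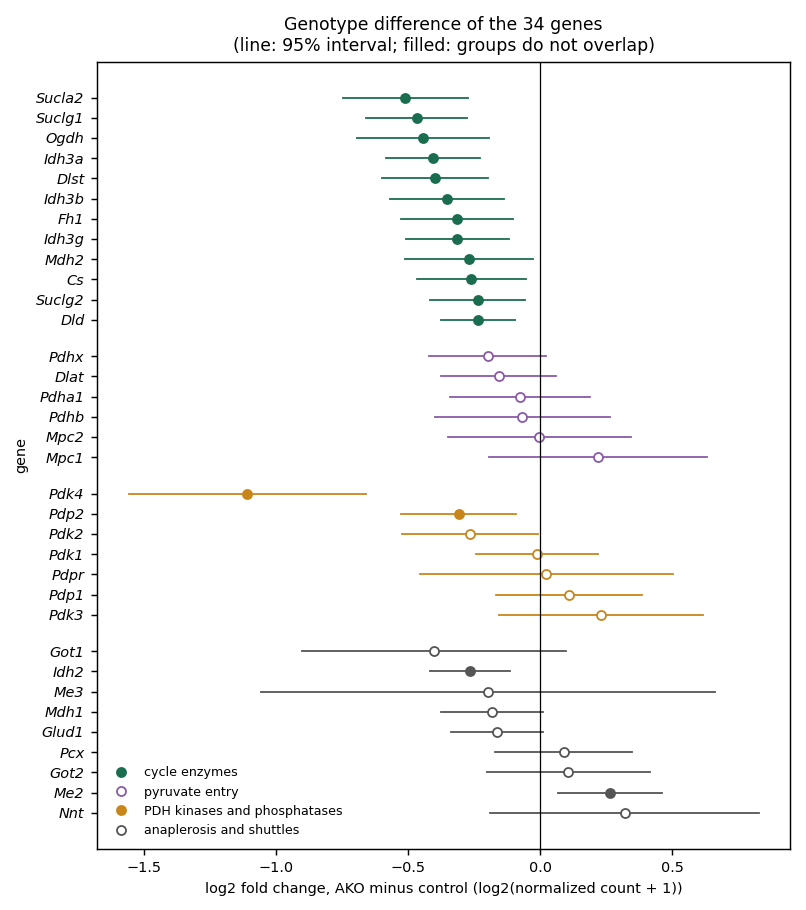
Log2 fold change of each of the 34 genes, AKO minus control, on the log2(normalized count + 1) scale, with points for the limma estimate, lines for its 95% interval, colors for the role and filled points where no AKO sample overlapped a control sample. All 12 cycle enzymes lie between -0.51 and -0.24 with filled points. The 6 pyruvate entry genes lie between -0.20 and 0.22 with open points, 5 of them below 0. Pdk4 lies farthest from 0 at -1.11.

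All 12 cycle enzyme genes were lower in AKO samples, with AKO means at 69.7% to 84.8% of the control mean, and in all 12 no AKO sample reached the lowest control sample. Each had a p under 0.05 before adjustment, and the limma adjusted p ran from 0.205 to 0.522, so none was called. DESeq2 called 7 of the 12 (Idh3a, Idh3b, Idh3g, Ogdh, Dlst, Sucla2 and Suclg1). Control replicate 2 was the highest sample for 11 of the 12, as it was for 5 of the 7 thermogenic markers. Without it the median of the 12 was -0.25, all 12 were lower without overlap, and 10 kept a p under 0.05. With RPM (reads scaled to the total over all listed genes) in place of the size factors, 11 of the 12 did not overlap and 10 had a p under 0.05.

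Citrate synthase, encoded by Cs (chr10:128337734-128362479, plus strand, GENCODE M21 on GRCm38, as for all gene positions here), opens the cycle by joining acetyl-CoA to oxaloacetate. Cs was at 25723, 30361 and 25816 normalized counts in control replicates 1 to 3 and at 22664, 23578 and 21898 in AKO replicates 1 to 3. Controls 1 and 3 were close together, control 2 was above them, and the AKO samples lay below all 3. The mean went from 27300.1 ± 2651 to 22713 ± 841 (SD, n = 3), a log2 difference of -0.26 (SE 0.089, limma adjusted p = 0.492). Csl, a citrate synthase-like gene, held at most 23.1 normalized counts in any sample.

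NAD-dependent isocitrate dehydrogenase, the step that makes 2-oxoglutarate, has a catalytic alpha subunit and beta and gamma subunits. Its alpha subunit gene Idh3a (chr9:54586334-54604661, plus strand) was at 10479.7, 11744 and 9872 in controls and at 8094, 8111 and 7941 in AKO samples. The AKO samples of Idh3a lay close together (SD 93.6, against 955 in controls) and under the lowest control. Its log2 difference was -0.41 (SE 0.077, limma adjusted p = 0.227, DESeq2 adjusted p = 0.000265). Idh3b was at 6581, 8036 and 6529 in controls and at 5176, 5588 and 5724 in AKO samples, and Idh3g at 6359, 7641 and 6528 in controls and at 5188, 5562 and 5708 in AKO samples. Both had control 2 as the highest and AKO 1 as the lowest sample, and neither overlapped between groups. Their log2 differences were -0.35 (SE 0.093) and -0.32 (SE 0.085), with limma adjusted p of 0.366 and 0.374 and DESeq2 adjusted p of 0.0283 and 0.0472. Idh3a lies on the same chromosome as the floxed gene, with 615.6 kb between Idh3a and Nrg4 (chr9:55220222-55326844) on GRCm38. Whether this position bears on the Idh3a values was not tested.

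The 2-oxoglutarate dehydrogenase complex turns 2-oxoglutarate into succinyl-CoA and is built like PDH, from an E1 dehydrogenase (Ogdh), an E2 succinyltransferase (Dlst) and the E3 lipoamide dehydrogenase (Dld) that it shares with PDH. Ogdh (chr11:6291633-6356642, plus strand) was at 22946, 28443 and 21547 in controls and at 17246, 18210.0 and 17757 in AKO samples. Dlst was at 10327, 12276 and 9935 in controls and at 8187, 8150.2 and 8208 in AKO samples. In both genes control 2 was the highest sample, and the 3 AKO samples of Dlst differed by less than their counting error (SD 29.4 against a Poisson SD of 92.0). The log2 difference was -0.45 (SE 0.11, limma adjusted p = 0.322, DESeq2 adjusted p = 0.00198) for Ogdh and -0.40 (SE 0.087, limma adjusted p = 0.295, DESeq2 adjusted p = 0.00174) for Dlst. Dld, the subunit used by both complexes, was at 6017, 6615 and 6102 in controls and at 5337, 5265 and 5291 in AKO samples. It did not overlap either, but its difference was among the smallest of the cycle genes, at -0.24 on the log2 scale (SE 0.061, limma adjusted p = 0.358, DESeq2 adjusted p = 0.0771).

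Succinyl-CoA synthetase releases the energy of succinyl-CoA as a nucleoside triphosphate, with the alpha subunit Suclg1 pairing with an ATP-forming (Sucla2) or a GTP-forming (Suclg2) beta subunit. Sucla2 (chr14:73525319-73596142, plus strand) was at 5959, 7053 and 5249 in controls and at 4258, 4280.1 and 4185 in AKO samples, the largest log2 difference among the cycle enzymes at -0.51 (SE 0.10, limma adjusted p = 0.255, DESeq2 adjusted p = 0.000287). Suclg1 (chr6:73248382-73276911, plus strand) was at 3928, 4763 and 4024 in controls and at 2973, 3042 and 3151 in AKO samples, with a log2 difference of -0.47 (SE 0.083, limma adjusted p = 0.205, DESeq2 adjusted p = 0.00018). In both genes the 3 AKO samples lay close together and under the lowest control. Suclg2 was at 756, 709.8 and 668 in controls and at 640.5, 596 and 574 in AKO samples, with control 1 rather than control 2 on top and a log2 difference of -0.24 (SE 0.078, limma adjusted p = 0.473, DESeq2 adjusted p = 0.593). With RPM in place of the size factors, Suclg2 was the cycle gene whose groups overlapped. Per exon length (TPM, reads per exon base scaled to 1 total in all samples) the ATP-forming subunit was the main one in this tissue, with Sucla2 at 372 ± 51.2 and Suclg2 at 37.6 ± 3.57 TPM in controls.

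The last steps hydrate fumarate (fumarase, Fh1) and regenerate oxaloacetate (mitochondrial malate dehydrogenase, Mdh2). Fh1 was at 3238, 4058 and 3390.2 in controls and at 2725, 2856 and 2970.4 in AKO samples, with a log2 difference of -0.32 (SE 0.091, limma adjusted p = 0.414, DESeq2 adjusted p = 0.0846). Mdh2 (chr5:135778480-135790398, plus strand) was at 10177, 13123 and 10508 in controls and at 8758, 9354 and 9763 in AKO samples, with a log2 difference of -0.27 (SE 0.10, limma adjusted p = 0.522, DESeq2 adjusted p = 0.276). In Mdh2 the groups came close without touching, with AKO 3 just under control 1.

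Skeletal muscle also holds much of these enzymes. Of its 12 markers tested 10 were higher and 2 (Myh1 and Myh2) lower in AKO samples, all 12 overlapped between groups and none had a p under 0.05. With control replicate 1 (the least muscle RNA) and AKO replicate 3 (the most) both left out, the median of the 12 cycle enzymes was -0.41, all 12 were lower without overlap, and 10 had a p under 0.05. The remaining samples still differed in summed muscle markers, at 27274 and 14962 normalized counts in controls and 20130.0 and 76891 in AKO samples. With control replicate 1 and AKO replicate 2, the samples with the most lymphocyte RNA, left out instead, it was -0.40, with 12 without overlap and 11 at a p under 0.05. The part of muscle or lymphocyte RNA in these differences was not tested.

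Promoter windows from RefSeq on GRCm38.p6, reaching from 250 bases before to 50 after a start site, were found for 30 of the 34 genes (not for Idh3a, Nnt, Pdp1 and Me2). They were searched on both strands for the sites TGACGTCA (CREB), CCGGAAG (ETS family, including GABP), CCAAT (NF-Y), GCGCATGCG (NRF1), AAGGTCA (a nuclear receptor core site) and TCAAGGTCA (its ERR form, which contains the core site). TGACGTCA was in a window of 3 of the 30 (10.0%; Ogdh, Mdh2 and Pdpr), and in 1.79% of all 32851 windows of that length and 3.23% of the listed genes. CCGGAAG was in 5 (16.7%; Idh3b, Idh3g, Dlst, Mpc1 and Glud1), and in 8.86% of windows and 16.9% of listed genes. CCAAT was in 18 of the 30, and in 37.41% of windows and 41.74% of listed genes. GCGCATGCG was in 1 (3.3%; Ogdh), and in 1.75% of windows and 3.49% of listed genes. AAGGTCA was in 2 (6.7%; Ogdh and Got1), and in 4.72% of windows and 4.29% of listed genes, and TCAAGGTCA was in 0, and in 0.42% of windows and 0.3% of listed genes. A gene can have more than 1 window, so the shares of genes are the ones to set beside the counts of the 30. A match of letters is not evidence that a factor binds there. Of the 11 cycle genes with a window, 2 held TGACGTCA and 3 held CCGGAAG. The upstream 250 bases of 3 cycle genes that hold a CREB or ETS site are printed as examples, with the site in capitals. Whether these sites bear on the differences was not tested. The Ogdh window (chr11:6291347-6291596, plus strand, the first of 6 windows of this gene) has TGACGTCA starting 51 bases before the RefSeq start site. That of Mdh2 (chr5:135778399-135778648, plus strand) has it 127 bases before. In GENCODE M21 Mdh2 starts at 135778480, inside the printed stretch and ahead of its TGACGTCA, so by that annotation the site lies within the gene. The Idh3g window (chrX:73786898-73787147, minus strand) has CCGGAAG 104 bases before the RefSeq start site.
Ogdh: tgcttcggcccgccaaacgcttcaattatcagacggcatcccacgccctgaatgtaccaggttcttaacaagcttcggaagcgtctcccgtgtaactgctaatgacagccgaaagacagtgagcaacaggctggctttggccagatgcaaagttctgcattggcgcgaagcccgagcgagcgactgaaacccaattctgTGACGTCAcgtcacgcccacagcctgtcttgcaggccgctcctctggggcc
Mdh2: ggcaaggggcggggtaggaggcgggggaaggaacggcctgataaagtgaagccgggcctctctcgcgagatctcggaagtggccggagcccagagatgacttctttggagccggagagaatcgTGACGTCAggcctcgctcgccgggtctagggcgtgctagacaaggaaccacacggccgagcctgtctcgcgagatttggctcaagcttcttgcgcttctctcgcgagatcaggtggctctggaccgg
Idh3g: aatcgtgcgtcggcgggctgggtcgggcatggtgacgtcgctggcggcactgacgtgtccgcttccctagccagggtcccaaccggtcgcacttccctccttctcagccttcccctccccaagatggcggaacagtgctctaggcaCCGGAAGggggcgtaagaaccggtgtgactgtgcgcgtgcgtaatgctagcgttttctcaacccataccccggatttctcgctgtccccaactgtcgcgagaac

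The 6 genes of pyruvate entry showed no such separation of the groups, although the difference between the roles was not itself tested. None had a p under 0.05, all 6 overlapped between groups, and their log2 differences ran from -0.20 to 0.22. The PDH complex was represented by both chains of its E1 (Pdha1 and Pdhb), its E2 (Dlat) and the E3-binding protein (Pdhx). Pdha1, whose product carries the phosphorylation sites, was at 10971 ± 1159.8 normalized counts in controls and 10426 ± 1434 in AKO samples (SD, n = 3; log2 difference -0.077, 95% interval -0.34 to 0.19). Pdhb was at 7182 ± 1259 and 6818 ± 912 (-0.068, 95% interval -0.40 to 0.26). In both genes AKO replicate 2 lay among the highest samples, so the groups were interleaved. Dlat was at 8936 ± 969 and 7996 ± 602 (-0.16, 95% interval -0.38 to 0.061). Pdhx was at 2248 ± 275 and 1951 ± 124 (-0.20, 95% interval -0.42 to 0.021), the lowest of the 6 differences (limma adjusted p = 0.581). All 4 intervals include -0.33, the median of the cycle enzymes, so that a decrease of that size was not distinguishable from none in the PDH subunits. Pdha1 shares 16.2% of its exon bases with Map3k15 on the opposite strand, and whether counting used strand is not stated in the sources used here.

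The mitochondrial pyruvate carrier is made of Mpc1 and Mpc2. Mpc1 was at 364 ± 81.9 in controls and 419 ± 59.7 in AKO samples, the only one of the 6 with a higher mean in AKO, at 0.22 on the log2 scale (95% interval -0.19 to 0.63, limma adjusted p = 0.775). Its difference was -0.083 without the pair of samples with the most lymphocyte RNA, and 23.1% of its exon bases overlap the antisense gene 4930506C21Rik. Mpc2 was at 4278 ± 898 and 4208 ± 303, a log2 difference of -0.003 (95% interval -0.35 to 0.34) that became 0.005 with TMM factors and 0.055 with RPM. Control replicate 1, the sample with the least muscle RNA, had the lowest value of both carrier genes. Without the control 1 and AKO 2 pair the median of the 6 pyruvate entry genes was -0.26 in place of -0.072.

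**Figure D2:**
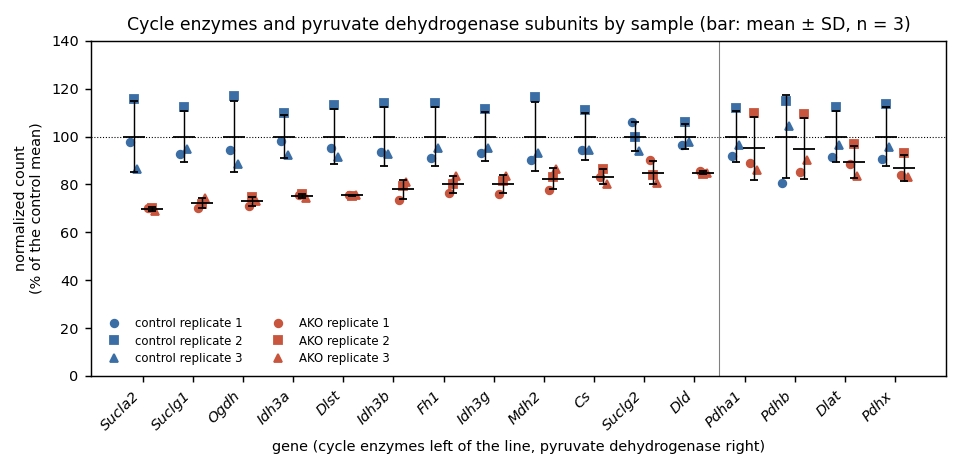
Normalized count of each cycle enzyme gene (left of the line) and each PDH subunit gene (right) in each sample, as a percentage of the control mean of that gene, with symbols for replicates and bars for the mean ± SD (n = 3). The AKO samples (red) of every cycle enzyme lie below the 3 controls (blue), with means between 69.7% for Sucla2 and 84.8% for Dld and Suclg2. The PDH subunits overlap between groups, Dlat and Pdhx only through AKO replicate 2.

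The cycle and PDH were also set against each other within samples, on the TPM scale. The summed level of the 12 cycle enzymes was 6125, 6840.3 and 5709.6 TPM in controls and 4879.7, 5211 and 4899 in AKO samples, and the AKO mean was 80.3% of the control mean. The 4 PDH subunits summed to 1754 ± 154 in controls and 1674 ± 233 in AKO samples. Dld, which PDH also uses, was counted with the cycle enzymes only. The ratio of cycle enzymes to PDH subunits was 3.76, 3.55 and 3.34 in controls and 3.10, 2.69 and 3.25 in AKO samples. All 3 AKO ratios were below the controls, although AKO 3 and control 3 were close. The sum of Ogdh and Dlst over the PDH subunits was 0.828, 0.799 and 0.704 in controls and 0.638, 0.554 and 0.663 in AKO samples, again without overlap. The member sets were chosen with results of these data known, so these ratios are given without a test.

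Among the kinases and phosphatases of PDH the largest difference was that of Pdk4, the kinase that is known to rise in fasting and when fatty acids are burned. Pdk4 (chr6:5483351-5496309, minus strand) was at 5438, 8743 and 4959.7 normalized counts in controls and at 2587, 2996 and 3031 in AKO samples. Control 2 stood well above the other controls, and all 3 AKO samples were close together and below every control. The mean was 6380.2 ± 2060.0 in controls and 2872 ± 247 in AKO samples (SD, n = 3), a log2 difference of -1.11 (SE 0.20, limma adjusted p = 0.205, DESeq2 adjusted p = 0.007), the farthest from 0 of the 34 genes. Without control 2 it was -0.86, and over the samples left out in turn it ran from -1.27 to -0.86. The Pdk4 window upstream of its RefSeq start site (chr6:5496279-5496528, minus strand) is printed because Pdk4 had the largest difference. It has CCAAT on the opposite strand starting 131 bases before that start, in capitals as it reads on the printed strand. In GENCODE M21 the gene reaches to 5496309, so the end of the printed stretch lies within it. Whether the site bears on the Pdk4 difference was not tested.
Pdk4: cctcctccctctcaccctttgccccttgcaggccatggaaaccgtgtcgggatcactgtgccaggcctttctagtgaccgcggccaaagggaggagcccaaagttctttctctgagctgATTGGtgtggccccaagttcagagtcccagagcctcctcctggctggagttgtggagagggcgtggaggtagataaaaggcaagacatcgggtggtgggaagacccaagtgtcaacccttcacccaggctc

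None of the other 3 kinases separated the groups. Pdk2, a broadly expressed kinase, was at 5121, 6621 and 5300.3 in controls and at 4339.6, 4588 and 5189 in AKO samples. AKO 3 was above control 1, so the groups overlapped by that sample, and the log2 difference was -0.27 (SE 0.11, limma adjusted p = 0.538). Pdk1, a kinase induced by hypoxia, was at 1570.5, 1795 and 1466 in controls and at 1504, 1786 and 1497 in AKO samples, a near match of the groups (-0.013, 95% interval -0.24 to 0.22). Pdk3, the least abundant, was at 77.3, 89.3 and 104 in controls and at 88.3, 115 and 114 in AKO samples, with a log2 difference of 0.23 (95% interval -0.16 to 0.62, limma adjusted p = 0.741). Pdk1 changed sign with RPM (0.046) and with limma-voom run with quality weights of the samples (0.003).

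Among the phosphatases, Pdp2 (the catalytic subunit regarded as responsive to insulin) was at 743, 688 and 594 in controls and at 539, 567 and 522 in AKO samples. No AKO sample reached the lowest control, and the log2 difference was -0.31 (SE 0.094, limma adjusted p = 0.448, DESeq2 adjusted p = 0.329). With RPM the groups of Pdp2 overlapped. The calcium-activated catalytic subunit Pdp1 was at 191 ± 18.8 and 206 ± 19.9 (0.11, 95% interval -0.17 to 0.38), and the regulatory subunit Pdpr at 229.8 ± 74.2 and 227 ± 19.3 (0.023, 95% interval -0.46 to 0.50). Both overlapped, and Pdpr was negative with edgeR (-0.011) and DESeq2 (-0.022).

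The make-up of the kinase transcripts was compared as well. Per exon length Pdk4 and Pdk2 were close in controls, at 442 ± 131 and 438 ± 50.7 TPM, while in AKO samples they were at 204 ± 18.0 and 371 ± 27.9. Pdk4 made up 45.6%, 51.4% and 42.6% of the transcripts of the 4 kinases in controls and 31.5%, 33.1% and 31.5% in AKO samples. Pdk2 made up 47.6%, 43.2% and 50.5% in controls and 58.7%, 56.3% and 59.9% in AKO samples. Neither share overlapped between groups, and Pdk4 was the leading kinase only in control 2. Summed kinase levels were 866, 1149 and 800.3 TPM in controls and 584, 661 and 666 in AKO samples. The summed phosphatases were far lower, at 50.6 ± 7.06 and 46.5 ± 3.98 TPM. The ratio of kinase to phosphatase transcripts was 14.7, 24.5 and 17.4 in controls and 12.2, 13.3 and 15.8 in AKO samples, which overlapped. Activity and phosphorylation of PDH were not measured by this assay.

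**Figure D3:**
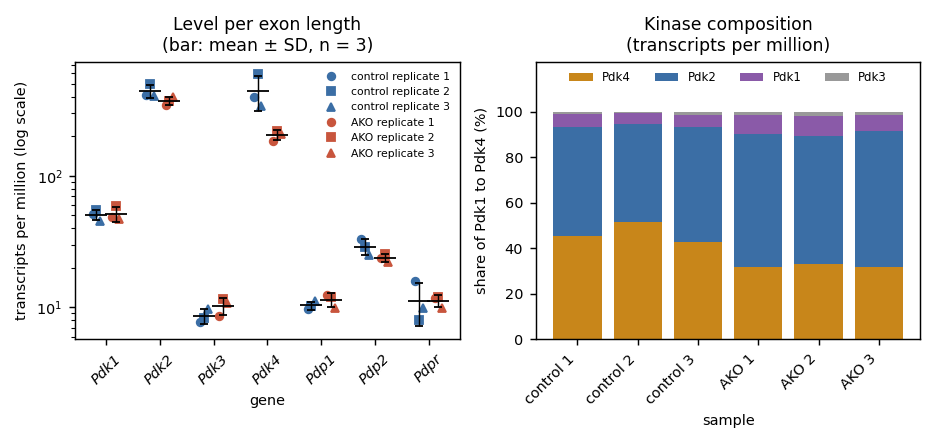
Left, TPM (log scale) of the 4 PDH kinases and the 3 phosphatase genes in each sample, with bars for the mean ± SD (n = 3); right, the share of each kinase in the summed kinase TPM of each sample. Pdk4 is at 341 to 589.9 in controls and 184 to 219 in AKO samples, and its share is 31.5% to 33.1% in the 3 AKO samples and 42.6% to 51.4% in the controls.

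The 9 genes of anaplerosis and shuttles were mixed, with 5 lower and 4 higher, 1 in each direction at a p under 0.05 and without overlap. Over all genes tested, 4.69% were lower and 4.41% higher at that p, and 8.31% were below and 6.14% above without overlap. Idh2, the NADP-dependent mitochondrial isocitrate dehydrogenase (chr7:80094846-80115392, minus strand), was at 2023, 2178 and 1930.4 in controls and at 1655, 1755 and 1682 in AKO samples. The lowest control of Idh2 was above the highest AKO sample. Its log2 difference was -0.27 (SE 0.066, limma adjusted p = 0.345, DESeq2 adjusted p = 0.114), in the range of the cycle enzymes. Me2, the mitochondrial malic enzyme that makes pyruvate from malate, was at 338, 342 and 386 in controls and at 427, 445 and 407 in AKO samples. It was the only one of the 34 genes with every AKO sample above every control, and its log2 difference was 0.26 (SE 0.085, limma adjusted p = 0.469, DESeq2 adjusted p = 0.676).

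Pcx, pyruvate carboxylase, which refills oxaloacetate and supports lipid synthesis in fat, was at 36458 ± 5031 in controls and 38559 ± 1737 in AKO samples (0.089, 95% interval -0.17 to 0.35). Per exon length it was the most abundant of the 34 genes in both groups, at 1868 ± 194 and 2028 ± 142 TPM, against 1152 ± 84.9 and 982 ± 62.8 for Cs. Its sign turned when control 1 was left out (-0.008) and without the pair of most lymphocyte RNA (-0.045). The malate-aspartate shuttle genes showed no common direction. Cytosolic Mdh1 was at 12086 ± 1184 and 10618 ± 312 (-0.18, 95% interval -0.38 to 0.011) and the cytosolic aminotransferase Got1 at 246 ± 64.7 and 185 ± 42.7 (-0.40, 95% interval -0.90 to 0.097). The mitochondrial aminotransferase Got2 was at 279.9 ± 44.1 and 299.5 ± 25.7 (0.11, 95% interval -0.20 to 0.41), shares 9.0% of its exon bases with another gene, and was negative without either pair of samples (-0.049 and -0.078). All 4 of these genes overlapped between groups.

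Glud1, glutamate dehydrogenase, was at 4855 ± 349.9 and 4329 ± 237 (-0.16, 95% interval -0.34 to 0.009, limma adjusted p = 0.564). Me3, another mitochondrial malic enzyme, was the least abundant of the 34 at 0.832 ± 0.350 TPM in controls, and its interval was wide (-0.20, -1.06 to 0.66). Nnt, the proton-driven transhydrogenase that makes mitochondrial NADPH, was at 359 ± 79.9 and 450.1 ± 110.4 (0.32, 95% interval -0.19 to 0.83). The annotation has a pair of gene models for Nnt that share 47.5% of its exon bases, so the Nnt counts are uncertain.

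**Figure D4:**
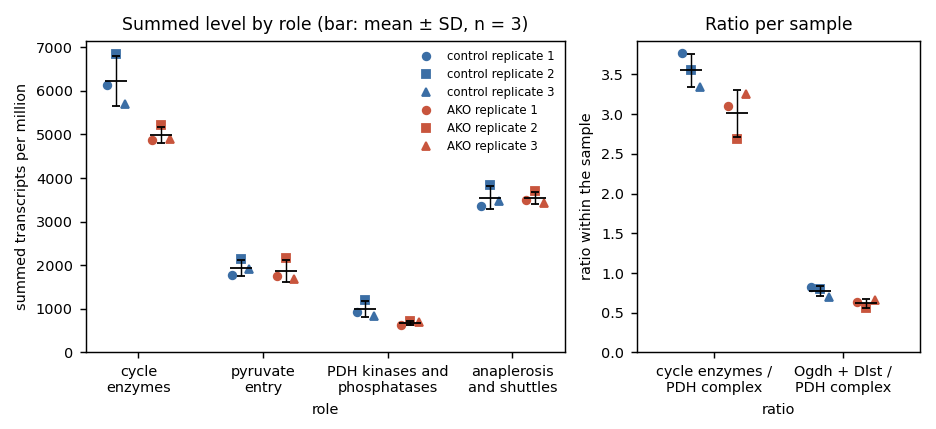
Left, summed TPM of the genes of each role in each sample, with bars for the mean ± SD (n = 3); right, the ratio within each sample of the summed cycle enzymes, and of Ogdh plus Dlst, to the 4 PDH subunits. Cycle enzymes go from 6225 to 4996 and kinases plus phosphatases from 989 to 684 with no AKO sample reaching a control, while pyruvate entry (1938 and 1868) and anaplerosis and shuttles (3554 and 3546) overlap.

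Summed by role, the AKO mean of the cycle enzymes was 80.3% of the control mean. That of the kinases and phosphatases was 69.1%, led by Pdk4, which went from 442 ± 131 to 204 ± 18.0 TPM where the sum went from 989 to 684, and 3 of these 7 genes were higher in AKO samples. For pyruvate entry it was 96.4%, and for anaplerosis and shuttles, led by Pcx, 99.8%, both within the spread between samples. Together the 34 genes were at 12235 ± 1095 RPM in controls and 10891 ± 392 in AKO samples.

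The other genes of the pathway, a list of 23 that holds the remaining cycle subunits, cytosolic counterparts, lactate dehydrogenases, lipoylation enzymes and carriers, were tested beside them (22, since Ogdhl was under the minimum). Of the 22, 16 were lower and 6 higher, with a median of -0.14, where 48.1% of all genes tested were lower. At a p under 0.05, 5 were lower and 1 was higher, where 4.69% and 4.41% of all genes were. Without overlap 6 were below and 1 above, against 8.31% and 6.14% of all genes. None was called in limma, which called 0.0144% of all genes. Of the 4 succinate dehydrogenase subunits all were lower, with log2 differences of -0.22 (SE 0.089) for Sdha and -0.24 (SE 0.10) for Sdhd at a p under 0.05, and of -0.20 and -0.20 for Sdhb and Sdhc above it. Ldhb, the lactate dehydrogenase subunit that favors pyruvate formation, was at 1397, 1818 and 1334 in controls and at 951, 1013 and 1066 in AKO samples, without overlap (-0.57, SE 0.12, limma adjusted p = 0.266, DESeq2 adjusted p = 0.00103), while Ldha overlapped (-0.023, SE 0.12). The 2-oxoglutarate carrier Slc25a11 was lower (-0.21, SE 0.089, limma adjusted p = 0.538). The aspartate-glutamate carrier Slc25a12 was at 182, 260.2 and 224 in controls and at 271, 353 and 424 in AKO samples, higher without overlap (0.65, SE 0.19, limma adjusted p = 0.414). Its AKO values followed the order of the muscle markers, lowest in AKO 1 and highest in AKO 3, as its control values did, lowest in control 1 and highest in control 2. The part of muscle RNA in its difference was not tested.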

How the data were processed

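Bulk RNA-Seq of iWAT from 3 control and 3 AKO samples was used, grouped by the genotype in their labels. By the study's methods, reads were mapped to GRCm38.p6 using STAR (the submitters' processing notes give mm10), assigned to GENCODE M25 genes using featureCounts, and compared between genotypes using DESeq2. What the authors deposited is a table of 16538 genes whose signal values are read counts over a size factor of the sample (normalized counts). Columns with log2 fold changes, p-values and adjusted p-values from the authors' own comparison stand beside them and were not used. The filter that chose the listed genes and the strand setting of the counting are not given in the sources used here. Of the columns with values of single samples, 0 could not be assigned.

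Genes with a mean of at least 10 were tested with limma (version 3.58.1, R 4.3.3, trend in the variance) on log2(normalized count + 1), with Benjamini-Hochberg adjustment over all 13855 genes and a threshold of 0.05. An exact permutation test of 3 samples against 3 cannot go below a p of 0.1, and any gene without overlap between groups reached that value. Dividing a sample's values by the smallest step between them gave whole numbers (100% of values, within 0.001), so whole reads were recovered and tested with limma-voom (with quality weights of the samples), DESeq2 (version 1.42.0) and edgeR (version 4.0.16). Depth was 17570335 to 18373707 reads. Counting error was small beside the spread between samples in some genes, such as Pdk4 in controls (SD 2060.0 against a Poisson SD of 78.4). It was not small in others with many reads, such as Idh3a (93.6 against 91.2) and Dlst (29.4 against 92.0) in AKO samples. Any pair of samples in a group differed beyond sampling noise (chi-square over its degrees of freedom, 9.86 to 20.1). This does not show that the pools were independent, and each counted as a replicate by its label.

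TPM used exon lengths of GENCODE M21, matched by symbol for 15894 of the 16538 genes (96.1%). Promoters came from RefSeq (GRCm38.p6). All 34 genes are named, with values of each sample for those with a p under 0.05 before adjustment and no overlap and for the 4 Pdk genes. The other pathway genes named are those with a p under 0.05, of which 1 is not reported here, and the succinate dehydrogenase subunits, Ldha, the promoters printed and the samples left out in pairs were chosen after values were seen. The 34 genes, the other lists and the tests were chosen with earlier results of these data known. The tests were checked on simulated data. Alternatives were other pseudocounts, filters, scalings and tests, samples left out, and a block for the replicate number.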

Additional observations from a re-analysis of the deposited data

How the results depend on the processing

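Over 19 alternatives, the log2 differences of the 34 genes kept their direction and their side of the threshold in 610 of 646 values, were called in 8 (all DESeq2) and turned sign in 28, and 25 of the 34 genes had 1 direction throughout. All 12 cycle enzymes were lower in every alternative. Genes called over all genes were 2 in limma, 6 where all samples had at least 10 reads, 149 with DESeq2 and 11 with robust shrinkage, 0 to 3 with samples left out in turn, and 0 without either pair of samples (the lymphocyte pair was added after seeing the data). Members called were 8 with DESeq2 and 0 otherwise. The replicate numbers did not pair the samples (correlations of 0.135, -0.351 and 0.24, with 2 of the 6 samples correlating best with their own number), and with a replicate block 2 genes and 0 members were called, with 19 members at a p under 0.05 in place of 17. With samples left out in turn, the medians ran from -0.202 to 0.024 for pyruvate entry, -0.151 to 0.03 for the PDH kinases and phosphatases, and -0.175 to 0.126 for anaplerosis and shuttles, and pyruvate entry was at -0.262 without the lymphocyte pair. Single genes that turned sign ran, with samples left out in turn, from -0.189 to 0.109 (Mpc2), -0.187 to 0.007 (Pdha1), -0.214 to 0.041 (Pdhb), -0.097 to 0.068 (Pdk1), -0.165 to 0.269 (Pdpr), -0.008 to 0.191 (Pcx), -0.029 to 0.193 (Got2) and -0.535 to 0.126 (Me3). Other scalings and tests gave 0.005 (TMM) and 0.055 (RPM) for Mpc2, 0.046 (RPM) and 0.003 (limma-voom with quality weights) for Pdk1, and -0.011 (edgeR) and -0.022 (DESeq2) for Pdpr. Without the muscle pair Pdk1 was 0.015 and Got2 -0.049, and without the lymphocyte pair Mpc1 was -0.083, Pcx -0.045 and Got2 -0.078. The cause of these turns was not tested. With 3 pools a group, the adjusted p of even Pdk4 ran from 0.007 to 0.554 over the alternatives, and genes with few reads, such as Me3, carry the widest intervals.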
